A study of Drosophila melanogaster with 18 samples.

Results

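The comparison described here set 3 libraries labelled IntS4 dsRNA against 3 libraries labelled B-gal dsRNA, which make up 6 of the 18 libraries of the study, and covered every gene outside ribosomal RNA. Both groups were DL1 cells, a Drosophila melanogaster culture line with haemocyte-like features. The first group (genotype label "IntS4 depletion") was bathed in 2 µg of dsRNA against IntS4, a subunit of the Integrator complex. A second set of libraries, compared below only where named, received 2 µg of dsRNA against IntS6, another Integrator subunit. Libraries with 2 µg of dsRNA against Mts or Pp2A-29B were not compared, and their counts are given only at the end. All 18 libraries entered the shared fit behind the tests. The B-gal group (genotype label "WT") received 2 µg of control dsRNA, and a Mock group (also "WT") is used for gene levels without dsRNA and for a check of the control dsRNA. All groups were kept for 3 days at 25 °C, and each had 3 biological replicates, sets A, B and C. RNA-seq was strand-specific and made from total RNA after removal of ribosomal RNA. Of 17753 entries in the deposited table, 17615 lay outside ribosomal RNA, and 8666 of these had enough counts to be tested.

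Integrator is a multi-subunit complex that binds RNA polymerase II and cuts nascent RNA. It makes the 3′ ends of those small nuclear RNAs (snRNAs) that this polymerase transcribes, most of them RNA parts of the spliceosome. It also ends transcription early at many protein-coding genes. IntS4 belongs to the cleavage module together with IntS9 and the endonuclease IntS11, while IntS6 lies in the part of the complex that recruits protein phosphatase 2A (PP2A). Where an snRNA 3′ end is not cut, polymerase is known to read on into the DNA downstream.

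The libraries held 14945442, 19298644 and 13993767 counts with IntS4 dsRNA (sets A, B and C), against 14991910, 16368684 and 15876776 with B-gal dsRNA. Ribosomal RNA took 65.1 to 70.8% of the counts with IntS4 dsRNA and 66.3 to 71.8% with B-gal dsRNA, so 4370742 to 6325688 and 4234680 to 5346079 counts were left for other genes. Levels are given as CPM, the counts scaled to a common library total with trimmed-mean (TMM) factors. Replicates of a group correlated at 0.993 to 0.996 on the log scale, and no pair of libraries held identical values. Of 12 haemocyte markers, 1 (Sr-CI) averaged under 1 CPM with IntS4 dsRNA and 3 (NimC1, vkg and Sr-CI) with B-gal dsRNA. The haemocyte GATA factor srp had 169, 170 and 191 CPM with IntS4 dsRNA, against 120, 120 and 127 CPM with B-gal dsRNA. Of other cell types, 4 germline markers summed to 0.656 to 1.68 CPM with IntS4 dsRNA and 0.334 to 0.624 CPM with B-gal dsRNA, and 4 muscle markers to 6.56 to 12.2 and 1.48 to 2.25 CPM. In bulk RNA, fewer cells of a type and less RNA per cell cannot be told apart.

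The targeted gene was measured first, and it stood higher in the libraries labelled for its depletion. IntS4 had 227, 43.1 and 26.3 CPM with IntS4 dsRNA, against 12.2, 12.3 and 11.9 CPM with B-gal dsRNA. Library A of the IntS4 dsRNA group stood apart from B and C, and the groups did not overlap. The log2 difference was 3.02 (SE 0.51, adjusted p = 7.6e-05 by edgeR's quasi-likelihood test with Benjamini-Hochberg adjustment, as for all adjusted p-values here), and 1.52 with library A left out. A count per gene does not separate reads of the added dsRNA from reads of the cell's own transcript, so these counts do not check the depletion, and the groups are named here only by their labels. Every direction below is that of the libraries labelled IntS4 dsRNA.

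Between the libraries labelled IntS4 dsRNA and the B-gal libraries, 4098 of 8666 tested genes passed an adjusted p of 0.05 (47.3%). Of these, 2344 rose (27%) and 1754 fell (20.2%). The rises were the larger changes: 1424 genes rose and 213 fell at least 2-fold, 886 rose and 31 fell at least 4-fold, and 428 rose and 2 fell at least 16-fold. The median log2 change was 1.39 among genes that rose, -0.55 among genes that fell and -0.01 over all genes tested. With both set A libraries left out, 2066 genes rose and 1325 fell. Genes that rose made up 57.2% of the calls, but 43.5% when libraries were scaled by upper quartiles and 45.0% when scaled by plain totals, which moved the median of all genes to -0.15 and -0.13. Small changes are therefore to be read relative to those shifts.

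In 4653 tested genes (53.7%) the 2 groups of libraries did not overlap, and 3910 of these were called. The genes that rose held 34.9, 35.2 and 36.8% of the counts of tested genes in IntS4 dsRNA libraries A, B and C, against 18.0, 18.8 and 19.3% with B-gal dsRNA. The genes that rose at least 16-fold held 3.11, 3.09 and 3.39% with IntS4 dsRNA and 0.0612, 0.058 and 0.0597% with B-gal dsRNA. These shares describe genes chosen for having risen. Of the genes that rose, 80 had no count in any B-gal library and 152 had 1 to 3, so a fitted fold change for them depends on the fit's prior count. For a gene with no B-gal count, a lower bound is given instead, against 3 counts over the group. The control dsRNA itself gave 0 calls (0%) against Mock, with 240 genes at an unadjusted p under 0.05 and the same edgeR fit.

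**Figure D1:**
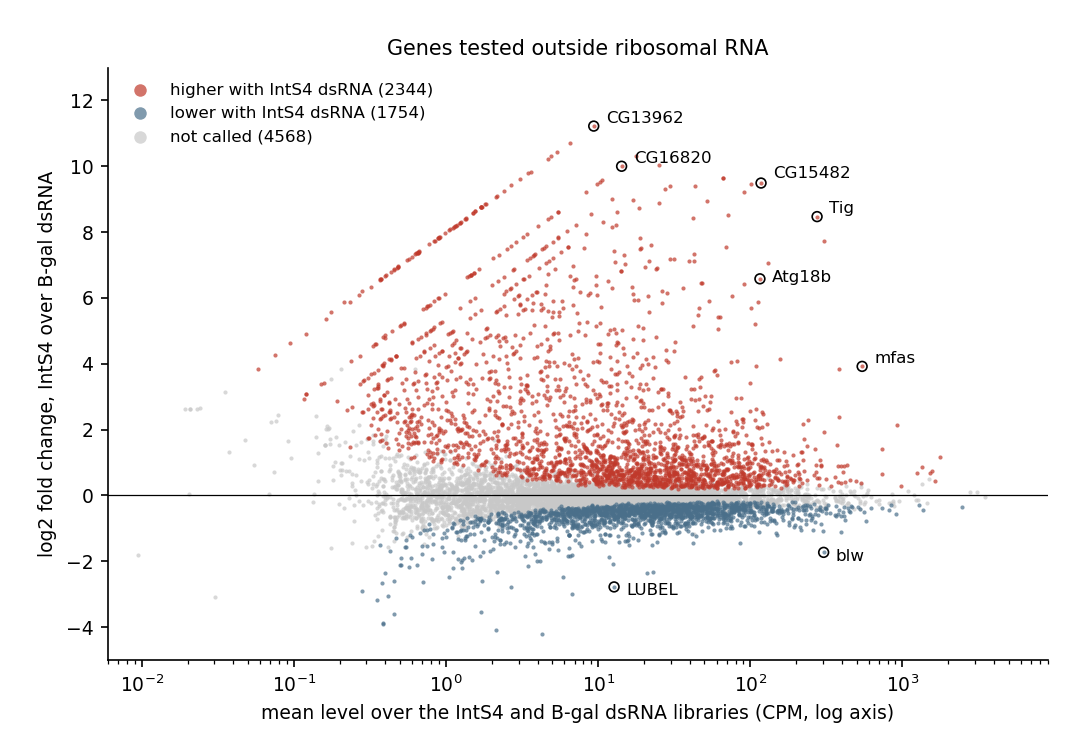
Log2 fold change (IntS4 dsRNA over B-gal dsRNA) of every tested gene outside ribosomal RNA against its mean level in CPM on a log axis; colours mark the 2344 genes that rose, the 1754 that fell and the 4568 that did not pass an adjusted p of 0.05. The rises reach far larger sizes than the falls, and fitted values of genes with no B-gal count depend on the prior count of the fit.

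In the counts that follow, 27% of all tested genes rose and 20.2% fell. Of 14 tested Integrator subunit genes, 4 rose and 3 fell, shares near those over all genes. Apart from IntS4, the gene omd, which encodes IntS5, had 72.8, 77.4 and 90.6 CPM with IntS4 dsRNA, against 36.7, 31.8 and 33.4 CPM with B-gal dsRNA. The groups did not overlap (log2 1.24, SE 0.09, adjusted p = 2.6e-09). It overlaps flfl on the other strand, and flfl fell by 0.72 on the log2 scale (adjusted p = 4.6e-05). IntS2, a subunit of the backbone, had 33.9, 35.6 and 38 CPM with IntS4 dsRNA and 24.7, 22.1 and 21.7 CPM with B-gal dsRNA, again with no overlap (log2 0.65, SE 0.09, adjusted p = 7.1e-06). IntS3 had 40.1, 40.4 and 39.8 CPM with IntS4 dsRNA and 29.4, 34.4 and 33.7 CPM with B-gal dsRNA (log2 0.30, adjusted p = 0.015). Its call was lost without B-gal library A (adjusted p = 0.081) and under both other scalings.

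IntS1, the largest subunit, fell: it had 60.2, 59.8 and 58.2 CPM with IntS4 dsRNA and 72.0, 73.0 and 74.7 CPM with B-gal dsRNA (log2 -0.30, SE 0.09, adjusted p = 0.0074). The other 2 falls, defl (IntS7, log2 -0.25, adjusted p = 0.049) and IntS10 (log2 -0.37, adjusted p = 0.048), sat at the threshold. The number of subunits that fell was 1 without IntS4 dsRNA library C, B-gal library B or B-gal library C. IntS6 had 46.4, 43.2 and 54.0 CPM with IntS4 dsRNA and 33.3, 29.4 and 26.8 CPM with B-gal dsRNA, with no overlap but an adjusted p of 0.059 (log2 0.68, SE 0.29). With the replicate set as a block it passed (log2 0.70, adjusted p = 0.02). The partners of IntS4 in the cleavage module, IntS9 (log2 0.05) and IntS11 (log2 -0.13), did not pass.

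PP2A subunits mostly fell. PP2A is a serine/threonine phosphatase built from a catalytic subunit, a scaffold and one of several regulatory subunits, and it acts with Integrator at promoters. Of 10 tested subunit and STRIPAK genes (a PP2A assembly with its own regulatory partners), 7 fell and 1 rose, against 20.2% and 27% of all tested genes. The catalytic subunit mts had 102, 107 and 106 CPM with IntS4 dsRNA and 132, 153 and 165 CPM with B-gal dsRNA (log2 -0.51, SE 0.14, adjusted p = 0.0053). The scaffold Pp2A-29B had 123, 124 and 117 CPM with IntS4 dsRNA, against 148, 158 and 165 CPM with B-gal dsRNA (log2 -0.37, SE 0.08, adjusted p = 0.00071). Both groups were separate for each of these genes.

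Among the STRIPAK genes, Mob4 had 26.2, 27.3 and 25.9 CPM with IntS4 dsRNA and 36.3, 37.8 and 36.5 CPM with B-gal dsRNA (log2 -0.48, adjusted p = 8.8e-05). Cka, the striatin of the fly, had 31.6, 52.1 and 32.1 CPM with IntS4 dsRNA and 64.0, 64.9 and 58.0 CPM with B-gal dsRNA (log2 -0.69, adjusted p = 0.0026), with library B highest within its group. Of the regulatory subunits, wrd passed narrowly (log2 -0.23, adjusted p = 0.045). Its call was lost without B-gal library A (adjusted p = 0.053), B (0.079) or C (0.11), without IntS4 dsRNA library A (0.08) or C (0.16), and without set A (0.091). tws (log2 -0.34, adjusted p = 0.0086) and wdb (log2 -0.29, adjusted p = 0.0087) fell, but each missed the threshold without 1 library: tws without B-gal library B (-0.27, adjusted p = 0.055) and wdb without IntS4 dsRNA library A (-0.24, adjusted p = 0.051). Strip (log2 0.00) and Fgop2 (log2 -0.02) did not pass. The exception was CG4733, a B″-type regulatory subunit, which had 3.06, 3.94 and 4.39 CPM with IntS4 dsRNA and 0.614, 0.568 and 0.39 CPM with B-gal dsRNA (log2 2.86, SE 0.26, adjusted p = 3.2e-08). It overlaps ClpX, which did not pass the test (log2 -0.09, adjusted p = 0.55).

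**Figure D2:**
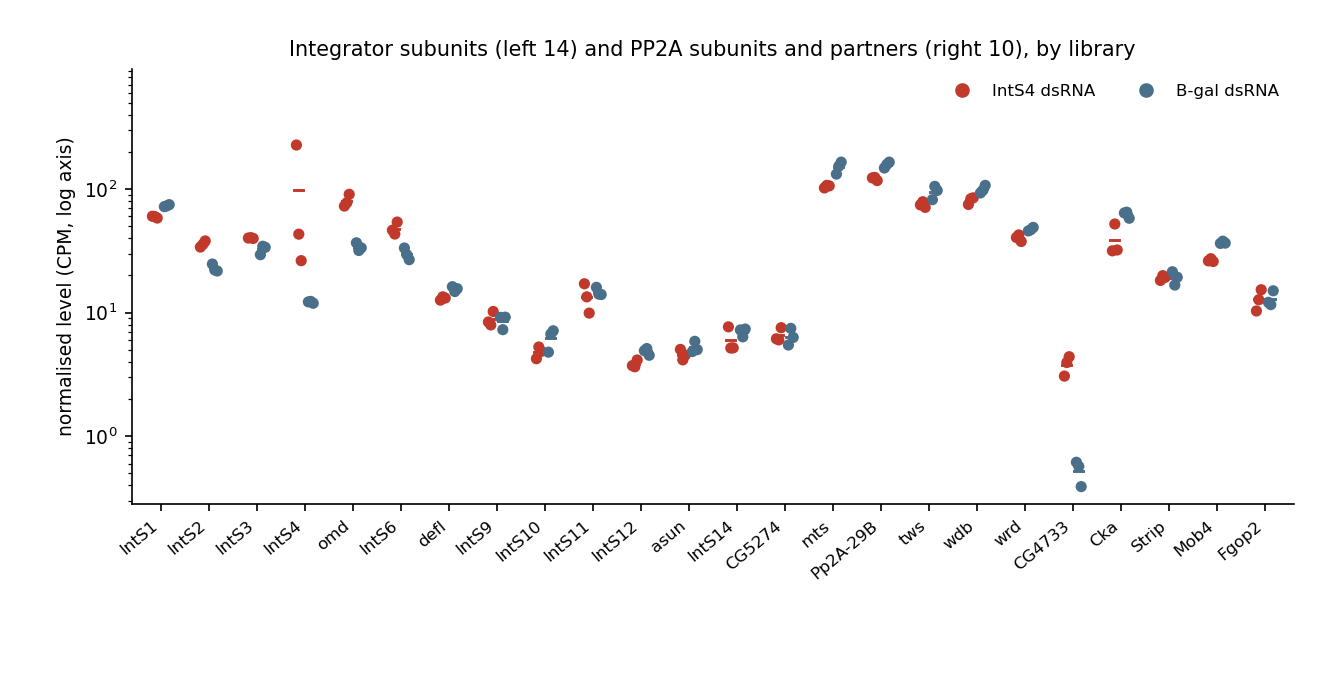
Levels in CPM (log axis) of 14 Integrator subunit genes and 10 PP2A and STRIPAK genes in each library, IntS4 dsRNA left of B-gal dsRNA, with the bar at the group mean. IntS4 itself, omd and CG4733 sit higher with IntS4 dsRNA, and mts, Pp2A-29B, Cka and Mob4 lower.

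Some of the largest rises lay beside snRNA genes. For each annotated snRNA gene, the snRNA, the gene that contains it and the first gene downstream on the same strand were followed. The snRNA genes were taken by annotation, U6 and 7SK among them, whether or not Integrator makes their 3′ ends. Of 10 first downstream genes found, 7 were tested, of which 4 rose and 1 fell (27% and 20.2% over all genes). The filter on low counts shapes this share. CG16820, CG13962 and lncRNA:CR45348 were near 0 in the B-gal libraries and were tested because they were high with IntS4 dsRNA. CG15482, which starts 111 bp downstream of snRNA:U2:34ABa (BDGP6, 2L:13210773-13211814, minus strand, protein-coding), had 252, 237 and 216 CPM with IntS4 dsRNA, against 0.478, 0.397 and 0.111 CPM with B-gal dsRNA. In counts that was 11447 over the IntS4 dsRNA libraries and 16 over the B-gal libraries. The log2 difference was 9.49 (SE 0.49, adjusted p = 1e-11). It overlaps Pect on the other strand, which averaged 49.2 CPM with IntS4 dsRNA and 32.6 CPM with B-gal dsRNA (log2 0.60, adjusted p = 0.00029).

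CG16820 lies 1258 bp from snRNA:U5:34A (2L:13246232-13250189, plus strand). It had 29, 30.5 and 26.0 CPM with IntS4 dsRNA and 0.0682, 0 and 0 CPM with B-gal dsRNA, or 1398 counts against 1. The ratio was 1440, with an exact 95% counting interval of 258 to 57000. Its fitted log2 change was 10.00, or 11.83 without B-gal library A, the library with the single count. CG13962, 1082 bp from snRNA:U2:38ABa (2L:19813704-19814532, minus strand, inside sick on the other strand), had 19.1, 19.3 and 17.8 CPM with IntS4 dsRNA and no count with B-gal dsRNA. With 914 counts against 0, it was at least 314-fold higher. The noncoding lncRNA:CR45348 lies 3441 bp from snRNA:U1:21D (2L:897453-898050, minus strand). It had 1.75, 1.72 and 1.9 CPM with IntS4 dsRNA and was at 0 with B-gal dsRNA, at least 29.9-fold higher (87 counts against 0).

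Not every first downstream gene rose. ND-B17, a respiratory complex I subunit 479 bp from snRNA:U5:35D, had 13.2, 12.0 and 8.85 CPM with IntS4 dsRNA and 19.6, 18.1 and 12.9 CPM with B-gal dsRNA (log2 -0.57, adjusted p = 0.044). The groups overlapped, and the call was lost without any one of IntS4 dsRNA library B or C or B-gal library A or B. CG1142, 772 bp from snRNA:7SKa, and mRF1, 3949 bp from snRNA:U2:34ABb, did not pass (log2 -0.20, adjusted p = 0.45, and log2 -0.26, adjusted p = 0.4). Of the 3 genes too low to test, lncRNA:CR45422, 1093 bp from snRNA:U11, had 11 counts with IntS4 dsRNA and 0 with B-gal dsRNA.

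Genes that contain an snRNA were also followed, a group added after their values had been seen. Of 7 tested, 6 rose, against 27% of all tested genes. Atg18b, a member of the WIPI family of autophagy proteins that spans snRNA:U4:39B (2L:21212322-21220572, minus strand), had 232, 236 and 218 CPM with IntS4 dsRNA and 3.07, 2.1 and 2.06 CPM with B-gal dsRNA (log2 6.58, SE 0.23, adjusted p = 4.8e-14). FASN2, a fatty acid synthase that spans snRNA:LU and snRNA:U5:23D (2L:3043947-3056143, plus strand), had 62.9, 66.4 and 37.5 CPM with IntS4 dsRNA and 1.09, 0.681 and 0.612 CPM with B-gal dsRNA (log2 6.14, SE 0.44, adjusted p = 1.2e-09). For both genes all 3 IntS4 dsRNA libraries stood far above all 3 B-gal libraries.

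CG34355, around snRNA:U1:95Cb and snRNA:U1:95Cc, had 2.04, 3.13 and 2.75 CPM with IntS4 dsRNA and 0.341, 0.114 and 0.223 CPM with B-gal dsRNA (log2 3.55, SE 0.46, adjusted p = 3.7e-06). Rises were smaller at Esyt2, an extended synaptotagmin (log2 0.95, adjusted p = 8.7e-06), at sick (log2 0.81, adjusted p = 4.5e-06) and at the junction protein gene cno (log2 0.34, adjusted p = 0.011). The call on cno was lost without IntS4 dsRNA library C or B-gal library B. Eip63E, a cyclin-dependent kinase gene around snRNA:U7, did not pass (log2 0.07, adjusted p = 0.64).

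The snRNA genes themselves moved less. Of 31 found, 21 were tested, of which 7 rose, against 27% over all genes, and 1 fell, against 20.2%. Near-identical copies make the split between them uncertain. snRNA:U1:95Ca had 10.2, 11.9 and 9.77 CPM with IntS4 dsRNA and 0.205, 0.397 and 0.557 CPM with B-gal dsRNA (log2 4.72, SE 0.37, adjusted p = 5e-09). snRNA:U1:82Eb had 3.79, 5.56 and 3.41 CPM with IntS4 dsRNA and 0.136, 0.341 and 0.223 CPM with B-gal dsRNA (log2 4.13, SE 0.59, adjusted p = 1.2e-05). snRNA:U4:38AB, inside sick, had 166, 165 and 131 CPM with IntS4 dsRNA and 49.7, 65.1 and 42.7 CPM with B-gal dsRNA (log2 1.55, SE 0.24, adjusted p = 2.7e-05). These 3 genes showed no overlap between groups.

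The one snRNA gene called lower was U11, of the minor spliceosome: it had 28.2, 25.2 and 22.2 CPM with IntS4 dsRNA and 67.1, 47.4 and 56.9 CPM with B-gal dsRNA (log2 -1.18, SE 0.18, adjusted p = 2.1e-05). U12, its partner in the same spliceosome, had 10.2, 10.2 and 6.1 CPM with IntS4 dsRNA and 5.39, 4.2 and 2.5 CPM with B-gal dsRNA (log2 1.15, adjusted p = 0.0029). The number of snRNA genes that fell was 2 without IntS4 dsRNA library A, 3 without IntS4 dsRNA library C, 3 without B-gal library B and 2 without B-gal library C. It was 3 with the replicate set as a block and 3 under upper-quartile or plain-total scaling. snRNA:U2:34ABa, next to CG15482, had 35.7, 35.8 and 25.0 CPM with IntS4 dsRNA and 31.5, 23.8 and 27.0 CPM with B-gal dsRNA, with overlap and no call (log2 0.23, adjusted p = 0.19). Of the other snRNAs beside the strongest rises, U4:39B (log2 -0.40, adjusted p = 0.25) and U1:21D (log2 -0.45, adjusted p = 0.34) also did not pass, and U5:34A (log2 1.2, adjusted p = 0.055) passed with the replicate set as a block (adjusted p = 0.048). Among box C/D and H/ACA guide RNAs, 3 of 135 tested snoRNA and scaRNA genes rose and 4 fell. Without B-gal library A, 5 of them rose and 1 fell, without B-gal library B 1 fell, and without any one IntS4 dsRNA library 2 fell. Under upper-quartile or plain-total scaling 8 fell, while over all tested genes the falls grew from 1754 to 2638 and 2516.

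**Figure D3:**
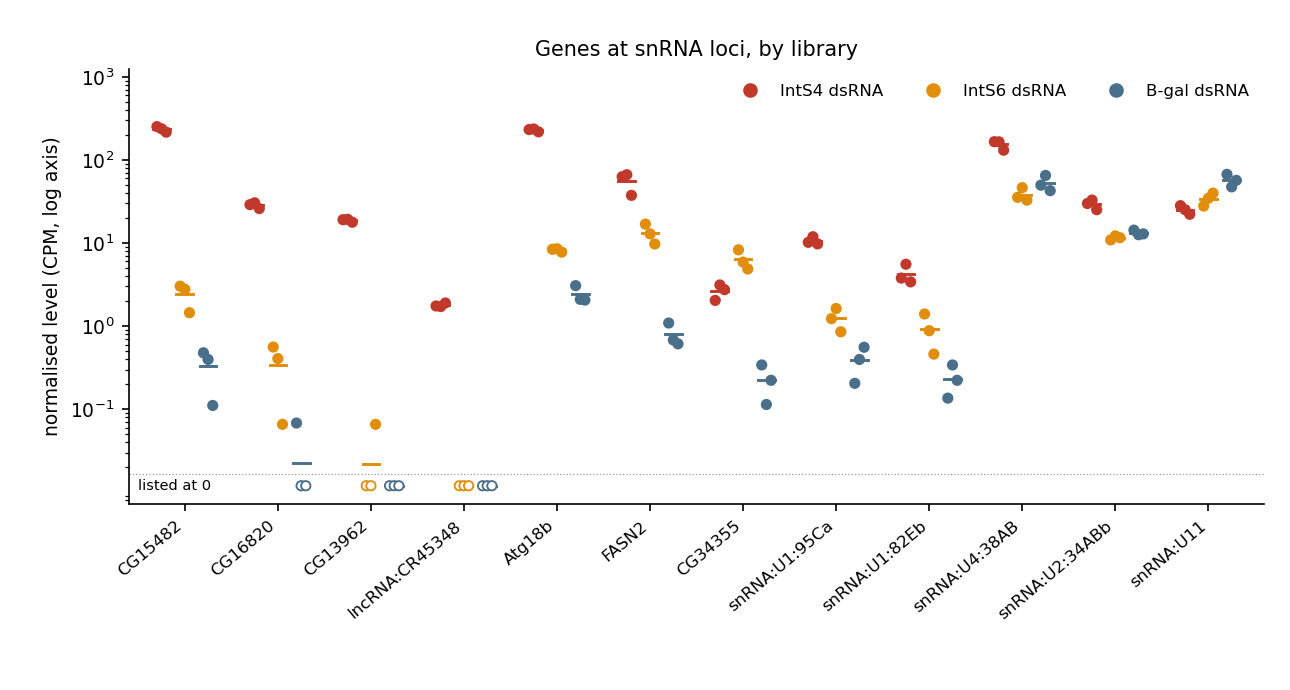
Levels in CPM (log axis) of 12 genes at snRNA loci in each library, with IntS4 dsRNA, IntS6 dsRNA and B-gal dsRNA left to right; bars are group means and open symbols are libraries listed at 0. The downstream genes CG15482, CG16820 and CG13962 and the surrounding genes Atg18b and FASN2 are high with IntS4 dsRNA and lower in both other groups.

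The gene groups below were taken as lists, and each count is to be read against 27% of all tested genes that rose and 20.2% that fell. Those shares belong to the main fit, in which 1754 of 8666 genes fell. Under upper-quartile scaling 2638 of 8666 fell, and under plain totals 2516 of 8635, so list counts under those scalings are to be read against these. The lists were described by counts and medians, with no test of a list as a whole.

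**Figure D4:**
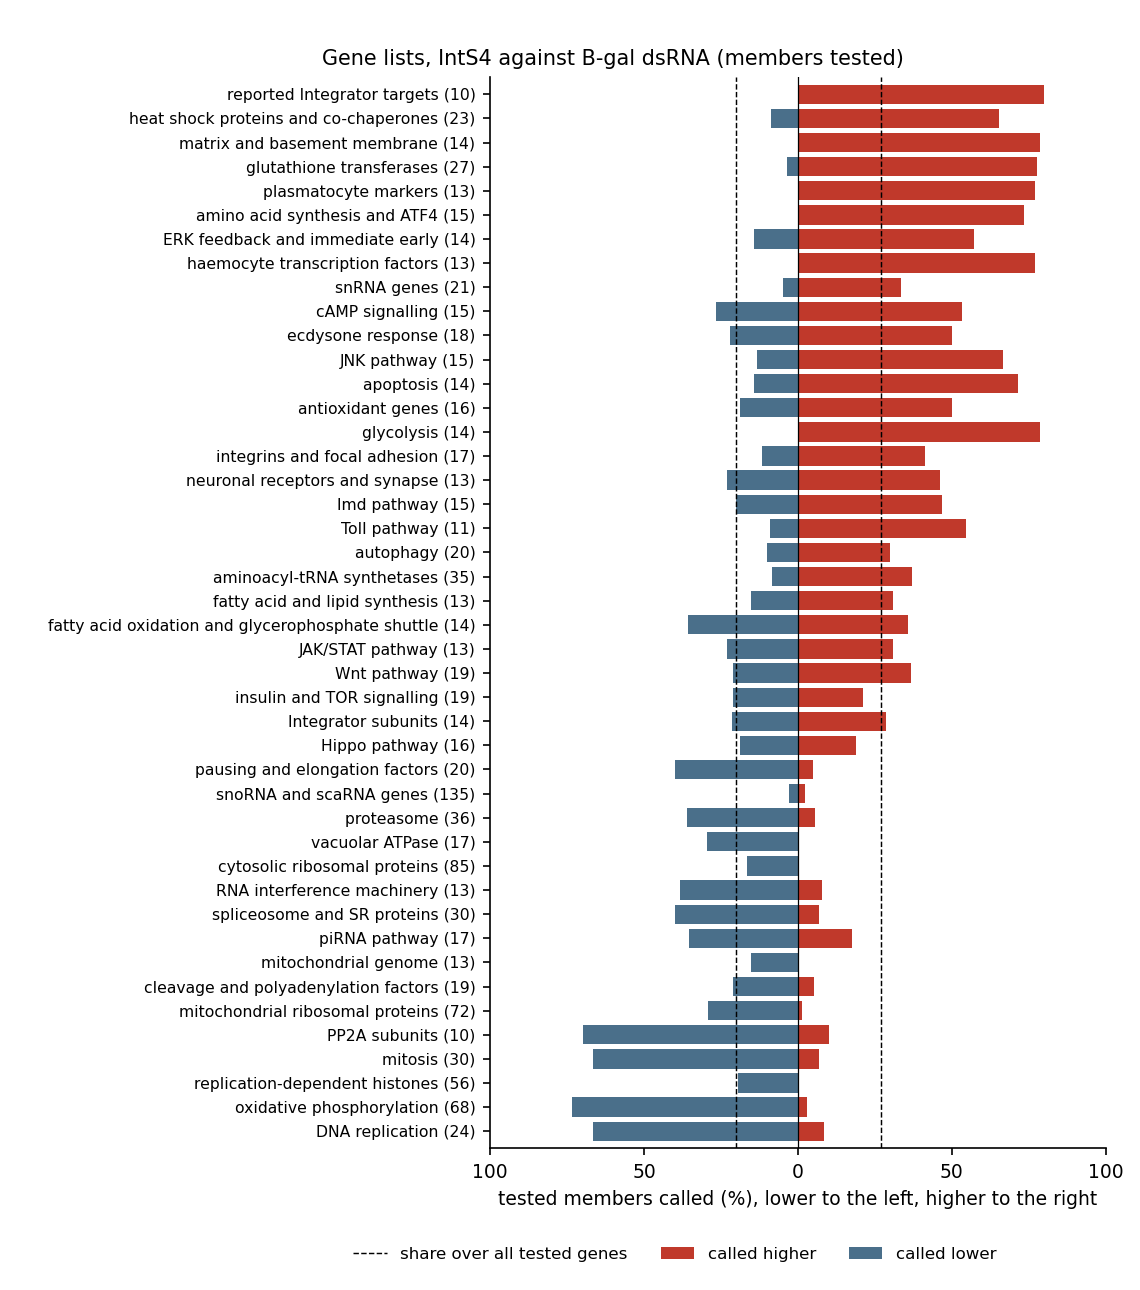
Percent of tested members that rose or fell with IntS4 dsRNA against B-gal dsRNA in the 44 gene lists with 10 or more tested members, ordered by their median log2 change, with dashed lines at 27% and 20.2% for all tested genes. Glutathione transferases and haemocyte transcription factors lie at the end where most members rose, and oxidative phosphorylation and DNA replication at the end where most members fell.

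Many genes of detoxification and redox balance rose. Of 27 tested glutathione transferases, enzymes that join glutathione to electrophiles, 21 rose and 1 fell, with a median log2 change of 1.5. GstD1 had 419, 421 and 360 CPM with IntS4 dsRNA and 92.0, 77.0 and 78.3 CPM with B-gal dsRNA (log2 2.28, SE 0.12, adjusted p = 1.1e-11). GstE11 had 10.9, 13.2 and 12.5 CPM with IntS4 dsRNA, against 1.77, 1.87 and 1.89 CPM with B-gal dsRNA (log2 2.72, SE 0.12, adjusted p = 1.4e-12). The groups were separate for both genes. GstE13 was the member that fell, with 3.65, 4.85 and 4.98 CPM with IntS4 dsRNA and 7.71, 7.95 and 15.2 CPM with B-gal dsRNA (log2 -1.19, adjusted p = 0.00046). A second member fell without IntS4 dsRNA library C or B-gal library A. Paralogs of this family lie in clusters and are alike in sequence, so reads may be split among them.

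Among 16 antioxidant genes, 8 rose and 3 fell. Catalase (Cat) had 141, 130 and 170 CPM with IntS4 dsRNA and 29.4, 26.1 and 32.1 CPM with B-gal dsRNA (log2 2.33, adjusted p = 4.8e-11). Keap1, the repressor of the Nrf2 homologue CncC, had 24.6, 25.8 and 20.9 CPM with IntS4 dsRNA and 5.39, 7.32 and 5.79 CPM with B-gal dsRNA (log2 1.94), with no overlap. The mitochondrial peroxiredoxin Prx3 fell, with 19.9, 19.2 and 23.0 CPM with IntS4 dsRNA and 35.8, 36.0 and 37.3 CPM with B-gal dsRNA (log2 -0.81, adjusted p = 9.6e-07). In energy metabolism, 50 of 68 tested oxidative phosphorylation genes fell and 2 rose, ND-51L2 (log2 2.61) and COX7AL (log2 1.16, adjusted p = 0.035). A single member rose without IntS4 dsRNA library B or C or any one B-gal library. The cytochrome bc1 subunit Cyt-c1 had 15.3, 16.9 and 13.8 CPM with IntS4 dsRNA and 37.3, 34 and 32.6 CPM with B-gal dsRNA (log2 -1.17, adjusted p = 9.7e-08). The cytosolic glycerol-3-phosphate dehydrogenase Gpdh1 had 66.6, 62.2 and 76.4 CPM with IntS4 dsRNA and 15.5, 15.9 and 15.6 CPM with B-gal dsRNA (log2 2.12, SE 0.10, adjusted p = 4.2e-12).

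Of 14 tested genes of fatty acid oxidation and the glycerophosphate shuttle, 5 rose and 5 fell, and the sign of their median depended on the scaling. whd, the carnitine palmitoyltransferase, had 13.4, 13.8 and 14.4 CPM with IntS4 dsRNA and 3.62, 2.78 and 2.28 CPM with B-gal dsRNA (log2 2.27). Mtpalpha, the alpha subunit of the trifunctional protein, had 47.8, 51.5 and 47.2 CPM with IntS4 dsRNA and 91.0, 83.1 and 85.4 CPM with B-gal dsRNA (log2 -0.82, adjusted p = 1.2e-07).

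Extracellular proteolysis and adhesion genes rose in part. All 4 genes of the matrix metalloproteinase list rose, and 3 of them without IntS4 dsRNA library B, B-gal library A or B-gal library C, or with both set A libraries left out. The filter on low counts shapes this count as well. Timp had no count with B-gal dsRNA and was tested only because other libraries held enough counts. Mmp2 had 84.0, 80.4 and 106 CPM with IntS4 dsRNA and 1.43, 1.87 and 1.89 CPM with B-gal dsRNA (log2 5.68, SE 0.39, adjusted p = 5.8e-10). Timp, the tissue inhibitor of these proteases, had 2.55, 2.53 and 3.08 CPM with IntS4 dsRNA and no count with B-gal dsRNA, at least 45.4-fold higher (132 counts against 0). It lies within Syn on the other strand, which fell by 1.39 on the log2 scale (adjusted p = 0.0001). Mmp1 had a wide spread, with 138, 185 and 111 CPM with IntS4 dsRNA and 54.6, 107 and 39.5 CPM with B-gal dsRNA (log2 1.11, adjusted p = 0.018), and its groups did not overlap.

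Of 17 integrin and focal adhesion genes, 7 rose and 2 fell. The alpha integrin if had 10.4, 9.86 and 9.9 CPM with IntS4 dsRNA and 0, 0.17 and 0 CPM with B-gal dsRNA, or 488 counts against 3. The ratio was 168, with a counting interval of 57.0 to 816, and the fitted log2 change was 7.22, or 10.31 without B-gal library B. The alpha integrin mew had 29.4, 27.5 and 26.9 CPM with IntS4 dsRNA and 5.73, 7.1 and 4.12 CPM with B-gal dsRNA (log2 2.31, SE 0.21, adjusted p = 4.7e-08). Focal adhesion kinase (Fak) fell, with 17.9, 19.5 and 21.6 CPM with IntS4 dsRNA and 25.1, 29.8 and 28.7 CPM with B-gal dsRNA (log2 -0.50, adjusted p = 0.00015). A single member fell without IntS4 dsRNA library A or C or B-gal library B or C.

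Of 13 tested haemocyte transcription factors, 10 rose and 0 fell, with a median log2 change of 0.72. Su(H), the DNA-binding factor of the Notch pathway, had 83.0, 76.1 and 71.2 CPM with IntS4 dsRNA and 7.78, 8.17 and 8.46 CPM with B-gal dsRNA (log2 3.23, SE 0.15, adjusted p = 3e-12). The zinc finger gene peb (hindsight) had 25.9, 22.4 and 26.1 CPM with IntS4 dsRNA and 0.819, 0.965 and 0.445 CPM with B-gal dsRNA (log2 5.05, SE 0.34, adjusted p = 5.3e-10). gcm, a fate switch of glia and plasmatocytes, had 7.81, 6.62 and 9.64 CPM with IntS4 dsRNA and 0.0682, 0 and 0 CPM with B-gal dsRNA, or 385 counts against 1. The ratio was 397, with a counting interval of 70.8 to 15700, and the fitted log2 change was 8.17, or 10.00 without B-gal library A. All 3 factors were separate between groups. Beside these factors, summed crystal cell markers were 23.4 to 26.8 CPM with IntS4 dsRNA and 0.835 to 1.19 CPM with B-gal dsRNA. peb is itself 1 of those 4 markers, and the other 3, PPO1 and PPO2 among them, lay under 1 CPM in both groups. The summed 5 lamellocyte markers were 850 to 930 CPM with IntS4 dsRNA and 412 to 437 CPM with B-gal dsRNA. Most of both sums came from cher (341, 381 and 337 against 204, 186 and 170 CPM) and msn (324, 342 and 341 against 212, 244 and 237 CPM). The marker atilla overlapped between groups, and of 8 tested genes of the lamellocyte list 4 rose and 1 fell. The 12 haemocyte markers summed to 1030 to 1440 CPM with IntS4 dsRNA and 327 to 357 CPM with B-gal dsRNA. Without Hml, a plasmatocyte marker with 469, 555 and 803 CPM with IntS4 dsRNA and 2.52, 2.27 and 3.78 CPM with B-gal dsRNA, the other 11 summed to 560 to 635 CPM with IntS4 dsRNA and 325 to 354 CPM with B-gal dsRNA. The marker eater had 43.4, 47.8 and 40.1 CPM with IntS4 dsRNA and 48.0, 48.3 and 36.3 CPM with B-gal dsRNA, with overlap. Whether cell type moved with the factors was not tested.

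Cell death genes rose at several steps. Of 14 tested apoptosis genes, 10 rose and 2 fell. The inhibitor-of-apoptosis antagonist hid had 7.15, 6.42 and 5.51 CPM with IntS4 dsRNA and 0.478, 0.681 and 0.334 CPM with B-gal dsRNA (log2 3.65, SE 0.30, adjusted p = 7.8e-09). Its functional relative rpr had 8.76, 7.43 and 8.26 CPM with IntS4 dsRNA and 0, 0.114 and 0.0557 CPM with B-gal dsRNA, or 393 counts against 3. The ratio was 135, with a counting interval of 45.9 to 658, and the fitted log2 change was 6.91, or 7.72 without B-gal library B. Buffy, a Bcl-2 family gene, had 48 counts with IntS4 dsRNA and 0 with B-gal dsRNA, at least 16.5-fold higher. The inhibitor Diap2 fell, with 13.5, 14.8 and 11.2 CPM with IntS4 dsRNA and 19.1, 21.2 and 16.5 CPM with B-gal dsRNA (log2 -0.52, adjusted p = 0.0021). Without IntS4 dsRNA library C or B-gal library C, 1 member fell in place of 2.

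The JNK pathway, a stress kinase cascade fed by the tumour necrosis factor egr, had 10 members that rose and 2 that fell of 15 tested. The ligand egr had 9.12, 10.3 and 10.7 CPM with IntS4 dsRNA and 0.273, 0.511 and 0.167 CPM with B-gal dsRNA (log2 4.94, SE 0.61, adjusted p = 1.9e-06). Its receptor wgn had 7.08, 7.13 and 7.41 CPM with IntS4 dsRNA and 0.955, 0.908 and 0.668 CPM with B-gal dsRNA (log2 3.09, SE 0.21, adjusted p = 5.6e-10). The secreted relaxin-like peptide Ilp8 had 62 counts with IntS4 dsRNA and 3 with B-gal dsRNA, a ratio of 21.3 with a counting interval of 6.96 to 106. Its fitted log2 change was 4.24, or 5.16 without B-gal library A. The kinase bsk, JNK itself, fell, with 15.5, 15.8 and 13.4 CPM with IntS4 dsRNA and 19.4, 27.0 and 24.0 CPM with B-gal dsRNA (log2 -0.66, adjusted p = 6.2e-05).

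The ligands of the JAK/STAT pathway moved in opposite directions, and 4 of 13 tested members rose and 3 fell, with a median whose sign depended on the scaling. upd2 had 5.03, 5.56 and 4.2 CPM with IntS4 dsRNA and 0, 0.17 and 0 CPM with B-gal dsRNA, or 243 counts against 3. The ratio was 83.5, with a counting interval of 28.2 to 408, and the fitted log2 change was 6.20, or 9.29 without B-gal library B. upd1, its paralog, had 7.59, 7.08 and 7.8 CPM with IntS4 dsRNA and 19.7, 18.6 and 21.9 CPM with B-gal dsRNA (log2 -1.43, SE 0.19, adjusted p = 6.4e-06). The receptor dome, shared by these ligands, had 31.6, 29.6 and 33.1 CPM with IntS4 dsRNA and 51.7, 45.9 and 52 CPM with B-gal dsRNA (log2 -0.67, SE 0.09, adjusted p = 4.2e-06). All 3 genes were separate between groups.

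Of 19 tested Wnt pathway genes, 7 rose and 4 fell, and the share that fell was near the 20.2% over all genes. Under upper-quartile or plain-total scaling 7 fell, and the sign of the median depended on the scaling. The receptor fz2 had 11.2, 9.7 and 10.2 CPM with IntS4 dsRNA and 0.887, 1.19 and 0.557 CPM with B-gal dsRNA (log2 3.55, SE 0.23, adjusted p = 2.3e-10). fz3, a related receptor, had 10.7, 12.3 and 12.1 CPM with IntS4 dsRNA and 1.91, 2.16 and 1.89 CPM with B-gal dsRNA (log2 2.55, adjusted p = 7e-09). On the inhibitory side, Notum, a secreted enzyme that removes the lipid from Wnt proteins, had 8.17, 4.4 and 10.2 CPM with IntS4 dsRNA and 36.2, 29.4 and 48.5 CPM with B-gal dsRNA (log2 -2.34, SE 0.39, adjusted p = 5.7e-05). Apc2, part of the destruction complex, had 13.9, 15.0 and 15.9 CPM with IntS4 dsRNA and 23.4, 25.5 and 24.3 CPM with B-gal dsRNA (log2 -0.71, adjusted p = 4.7e-06). Groups were separate for all 4. Of 16 Hippo pathway genes, 3 rose and 3 fell.

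Of 14 feedback and immediate early genes of the ERK pathway, 8 rose and 2 fell, with a median log2 change of 0.84, and 4 fell under upper-quartile scaling. The protease rho, which releases EGF-like ligands, had 18.5, 20.2 and 20.5 CPM with IntS4 dsRNA and 1.02, 0.795 and 1.11 CPM with B-gal dsRNA (log2 4.33, SE 0.18, adjusted p = 4.7e-13). The nuclear receptor Hr38 had 32.3, 34.2 and 39.9 CPM with IntS4 dsRNA and 4.57, 2.9 and 4.17 CPM with B-gal dsRNA (log2 3.20, SE 0.24, adjusted p = 1.9e-09). The transcription factor sr, homologue of the Egr family, had 3.06, 3.69 and 4.0 CPM with IntS4 dsRNA and 0.0682, 0.0568 and 0.167 CPM with B-gal dsRNA (log2 5.07, SE 0.57, adjusted p = 5.6e-07). The feedback inhibitors sty and aos fell (log2 -0.64, adjusted p = 0.00018, and log2 -1.02, adjusted p = 0.00042). sty had 193, 197 and 209 CPM with IntS4 dsRNA and 256, 332 and 346 CPM with B-gal dsRNA.

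Of 15 tested genes of cyclic AMP signalling, 8 rose and 4 fell. The adenylyl cyclases did not move as one: Ac13E had 16.1, 16.9 and 16.9 CPM with IntS4 dsRNA and 1.84, 1.65 and 1.89 CPM with B-gal dsRNA (log2 3.21, SE 0.17, adjusted p = 1.1e-11). Ac3 had 11.3, 13.2 and 10.3 CPM with IntS4 dsRNA and 31.5, 33.9 and 34.4 CPM with B-gal dsRNA (log2 -1.52, SE 0.14, adjusted p = 2.9e-08). The G protein subunit Galphas fell as well, with 19.5, 20.1 and 16.5 CPM with IntS4 dsRNA and 25.3, 31.8 and 30.8 CPM with B-gal dsRNA (log2 -0.65, adjusted p = 0.00011). Groups were separate for these genes.

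Of 18 tested genes of the ecdysone response, the moulting hormone pathway, 9 rose and 4 fell, and 2 fell with both set A libraries left out. The nuclear receptor Hr3 had 2.41, 2.38 and 2.3 CPM with IntS4 dsRNA and 0.136, 0.227 and 0.0557 CPM with B-gal dsRNA (log2 4.01, SE 0.36, adjusted p = 3.2e-08). The early gene br fell, with 82.6, 82.3 and 87.2 CPM with IntS4 dsRNA and 102, 133 and 118 CPM with B-gal dsRNA (log2 -0.49, adjusted p = 0.0002). Insulin and TOR signalling had 4 of 19 genes that rose and 4 that fell, 2 that fell without B-gal library C and 7 that fell under upper-quartile scaling. Sesn (Sestrin), a stress-induced inhibitor of TOR complex 1, had 83.7, 76.6 and 93.8 CPM with IntS4 dsRNA and 8.94, 9.25 and 7.79 CPM with B-gal dsRNA (log2 3.29, SE 0.11, adjusted p = 4.5e-14). Thor, the translation inhibitor 4E-BP, had 118, 120 and 148 CPM with IntS4 dsRNA and 22.3, 26.2 and 54.7 CPM with B-gal dsRNA (log2 1.90, adjusted p = 0.0001).

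Cell cycle genes mostly fell. Of 24 DNA replication genes, 16 fell and 2 rose. The helicase subunit Mcm5 had 6.86, 6.32 and 5.77 CPM with IntS4 dsRNA and 15.3, 15.9 and 12.0 CPM with B-gal dsRNA (log2 -1.19, adjusted p = 2.4e-06). CycE, the cyclin of S phase entry, had 25.1, 26.2 and 27.5 CPM with IntS4 dsRNA and 60.4, 65.6 and 58.4 CPM with B-gal dsRNA (log2 -1.23, SE 0.09, adjusted p = 3.2e-09). The 2 that rose were RnrS, the small subunit of ribonucleotide reductase, and the sliding clamp PCNA. RnrS had 190, 194 and 197 CPM with IntS4 dsRNA and 46.7, 48.4 and 43.1 CPM with B-gal dsRNA (log2 2.07, SE 0.10, adjusted p = 4.6e-12). PCNA had 102, 110 and 124 CPM with IntS4 dsRNA and 78.9, 81.3 and 91.9 CPM with B-gal dsRNA (log2 0.41, adjusted p = 0.0014).

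Of 30 mitosis genes, 20 fell and 2 rose. Cyclin B (CycB) had 75.4, 73.7 and 77.0 CPM with IntS4 dsRNA and 120, 118 and 118 CPM with B-gal dsRNA (log2 -0.65, adjusted p = 6e-07). The 2 that rose were Incenp, of the chromosomal passenger complex, and stg, the Cdc25 phosphatase. Incenp had 153, 138 and 148 CPM with IntS4 dsRNA and 73.1, 64.5 and 62.2 CPM with B-gal dsRNA (log2 1.14, SE 0.09, adjusted p = 3.3e-09). stg had 167, 165 and 153 CPM with IntS4 dsRNA and 106, 106 and 99.9 CPM with B-gal dsRNA (log2 0.63, adjusted p = 0.00016). All of these cell cycle genes were separate between groups.

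RNA processing genes moved by smaller amounts. Of 30 spliceosome and SR protein genes, 12 fell and 2 rose, and 1 rose without IntS4 dsRNA library A or B or B-gal library B. The SR protein B52 had 97.3, 92.5 and 86.1 CPM with IntS4 dsRNA and 193, 200 and 212 CPM with B-gal dsRNA (log2 -1.13, SE 0.11, adjusted p = 1.5e-07). Prp8, at the heart of the spliceosome, had 201, 196 and 191 CPM with IntS4 dsRNA and 271, 281 and 331 CPM with B-gal dsRNA (log2 -0.59, adjusted p = 3.5e-05). Prp31, a U4/U6 particle protein, rose, with 19.0, 14.1 and 12.7 CPM with IntS4 dsRNA and 8.32, 9.37 and 9.52 CPM with B-gal dsRNA (log2 0.74, adjusted p = 0.00084).

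Histone messages, which end without a poly(A) tail, had 11 of 56 tested genes that fell and 0 that rose. The share that fell was near the 20.2% over all genes. The number that fell was 5 without IntS4 dsRNA library C, 6, 7 and 17 without B-gal library A, B and C, and copies of these genes are nearly identical. Slbp, which binds the histone stem-loop, had 44.2, 44.3 and 55.7 CPM with IntS4 dsRNA and 22.7, 21.2 and 21.3 CPM with B-gal dsRNA (log2 1.15, SE 0.11, adjusted p = 4e-08). Its neighbour in the histone locus body, mute, had 34.5, 35.4 and 29.2 CPM with IntS4 dsRNA and 52.1, 51.9 and 42.5 CPM with B-gal dsRNA (log2 -0.56, adjusted p = 0.00029). Both genes had separate groups.

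Of 20 pausing and elongation factors, 8 fell and 1 rose. Without B-gal library A, 5 fell and 2 rose, and with both set A libraries left out 4 fell and 2 rose. The kinase Cdk9 had 12.0, 10.1 and 14.2 CPM with IntS4 dsRNA and 17.3, 18.2 and 18.8 CPM with B-gal dsRNA (log2 -0.59, adjusted p = 0.00091). Spt6 had 45.3, 43.0 and 47.1 CPM with IntS4 dsRNA and 65.4, 62.7 and 61.5 CPM with B-gal dsRNA (log2 -0.49, adjusted p = 3.8e-05). The pausing factor gene spt4 rose (log2 0.46, adjusted p = 0.0027).

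Genes of translation were taken as separate lists. Of 85 tested cytosolic ribosomal protein genes, 14 fell and 0 rose, and the share that fell lay below the 20.2% of all tested genes. In other fits 29 fell with the replicate set as a block, 30 under upper-quartile scaling and 29 under plain totals. Over all tested genes the falls also grew in those fits, from 1754 to 2013, 2638 and 2516. The number that fell was 8 without IntS4 dsRNA library C and 7 without B-gal library A, and 1 rose without IntS4 dsRNA library C. Of 35 aminoacyl-tRNA synthetase genes, 13 rose and 3 fell. The number that fell was 5 without B-gal library B and 7 under either of those scalings. AspRS, for aspartate in the cytosol, had 174, 174 and 170 CPM with IntS4 dsRNA and 73.8, 75.6 and 95.4 CPM with B-gal dsRNA (log2 1.08, adjusted p = 5.4e-08). SerRS-m, for serine in mitochondria, had 2.85, 2.73 and 2.16 CPM with IntS4 dsRNA and 7.78, 9.25 and 7.68 CPM with B-gal dsRNA (log2 -1.67, SE 0.16, adjusted p = 5.6e-08). Of 20 autophagy genes, 6 rose and 2 fell. The autophagy receptor ref(2)P had 166, 171 and 206 CPM with IntS4 dsRNA and 44.8, 46.7 and 71.5 CPM with B-gal dsRNA (log2 1.73, adjusted p = 2e-07).

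Some genes best known from neurons rose in these cells, with 6 that rose and 3 that fell of 13 tested. The microtubule-associated protein gene futsch had 49.0, 45.2 and 38 CPM with IntS4 dsRNA and 2.59, 2.9 and 3.39 CPM with B-gal dsRNA (log2 3.89, adjusted p = 1.4e-12). nAChRbeta3, an acetylcholine receptor subunit that overlaps Ets21C, had 133, 131 and 159 CPM with IntS4 dsRNA and 6.76, 7.55 and 11.3 CPM with B-gal dsRNA (log2 4.04, adjusted p = 4.1e-10). The subunit nAChRalpha5 fell, with 6.71, 5.26 and 8.85 CPM with IntS4 dsRNA and 22.8, 25.9 and 56.8 CPM with B-gal dsRNA (log2 -2.35, SE 0.41, adjusted p = 0.00011), and it overlaps NimC4. The 4 neuron markers together summed to 60.2 to 69.1 CPM with IntS4 dsRNA and 15.6 to 23.3 CPM with B-gal dsRNA. Most of that gain came from futsch, which is itself among these markers. The marker elav had 19.7, 19.3 and 21.9 CPM with IntS4 dsRNA and 12.8, 15.8 and 19.5 CPM with B-gal dsRNA, with overlap. The neuron markers brp and nSyb lay near 0 in both groups. The part of other cell types in these counts was not tested.

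Among single genes outside these lists, the lysosomal beta-galactosidase homologue Ect3 had 204, 202 and 198 CPM with IntS4 dsRNA and 0.478, 0.284 and 0.111 CPM with B-gal dsRNA (log2 9.45, SE 0.68, adjusted p = 1.3e-09). The alpha-tubulin gene alphaTub85E had 79.8, 93.2 and 86.8 CPM with IntS4 dsRNA and 0.205, 0.0568 and 0.111 CPM with B-gal dsRNA (log2 9.41, SE 0.76, adjusted p = 6.9e-09). Of 7 tested tubulins, 3 rose and 3 fell. The abundant alphaTub84B had 1500, 1540 and 1540 CPM with IntS4 dsRNA and 926, 1030 and 885 CPM with B-gal dsRNA (log2 0.69, adjusted p = 2.7e-05). Its relative alphaTub84D fell, with 56.6, 62.6 and 42.8 CPM with IntS4 dsRNA and 95.7, 92.8 and 69.3 CPM with B-gal dsRNA (log2 -0.67, adjusted p = 0.0011). The glutamine synthetase Gs2 had 138, 126 and 151 CPM with IntS4 dsRNA and 0.273, 0.852 and 1.0 CPM with B-gal dsRNA (log2 7.54, SE 0.56, adjusted p = 1.9e-09). mgl (megalin), a lipoprotein receptor, had 255, 265 and 264 CPM with IntS4 dsRNA and 1.84, 2.16 and 1.78 CPM with B-gal dsRNA (log2 7.07, SE 0.24, adjusted p = 3.7e-14). Ect3 overlaps Tk and mgl overlaps CG44815. No B-gal library reached any IntS4 dsRNA library in the genes that rose.

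Of the 80 genes that rose with no count in any B-gal library, those with the most counts were named. Besides CG13962, CG7888 had 10.9, 15.0 and 13.3 CPM with IntS4 dsRNA, at least 223-fold higher than with B-gal dsRNA. It overlaps CG6321, which rose too (log2 2.25, adjusted p = 1.3e-05). CG7191 had 9.63, 12.1 and 7.8 CPM (at least 169-fold higher) and Dh31-R, a neuropeptide receptor, 9.19, 10.3 and 8.52 CPM (at least 158-fold higher) with IntS4 dsRNA. Reck, a membrane-anchored protease inhibitor, had 10.9, 13.7 and 7.8 CPM with IntS4 dsRNA, at least 186-fold higher. It overlaps Prosbeta2 on the other strand, which averaged 49.9 CPM with IntS4 dsRNA and 61.2 CPM with B-gal dsRNA while Reck was at 0. The homeodomain gene exex had 7.59, 4.7 and 9.44 CPM with IntS4 dsRNA, at least 117-fold higher.

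In CPM, the largest gains included several genes of high level in both groups. The laminin subunit LanA had 2130, 2150 and 3040 CPM with IntS4 dsRNA and 1020, 936 and 1310 CPM with B-gal dsRNA (log2 1.17, SE 0.19, adjusted p = 4.7e-05). Arc1, a capsid-forming protein of retrotransposon origin, had 1550, 1590 and 1410 CPM with IntS4 dsRNA and 343, 387 and 306 CPM with B-gal dsRNA (log2 2.13, SE 0.13, adjusted p = 1e-10). The matrix protein mfas (midline fasciclin) had 970, 941 and 1130 CPM with IntS4 dsRNA and 60.0, 76.4 and 64.2 CPM with B-gal dsRNA (log2 3.92, SE 0.18, adjusted p = 2e-12). The cytoplasmic actins Act5C (log2 0.75, adjusted p = 0.0055) and Act42A (log2 0.87, adjusted p = 0.00042) rose as well.

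Among losses of abundant transcripts, blw, the alpha subunit of the mitochondrial ATP synthase, had 153, 134 and 136 CPM with IntS4 dsRNA and 502, 454 and 444 CPM with B-gal dsRNA (log2 -1.73, SE 0.09, adjusted p = 1.9e-11). The stress granule protein gene rin, the G3BP of the fly, had 255, 262 and 233 CPM with IntS4 dsRNA and 513, 560 and 544 CPM with B-gal dsRNA (log2 -1.11, SE 0.09, adjusted p = 1e-08). The transcription factor zfh2 had 411, 386 and 466 CPM with IntS4 dsRNA and 614, 713 and 841 CPM with B-gal dsRNA (log2 -0.78, adjusted p = 1.9e-05). The chromatin remodeler kis (log2 -0.45, adjusted p = 0.00043) and the RNA-binding repressor spen (log2 -0.56, adjusted p = 0.0026) fell by less. Of the lower-expressed genes, sni, a carbonyl reductase, had 0.949, 1.67 and 2.69 CPM with IntS4 dsRNA and 11.7, 8.35 and 9.96 CPM with B-gal dsRNA (log2 -2.48, SE 0.23, adjusted p = 3.4e-08), and it overlaps Trxr1. For none of these genes did the groups overlap.

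Genes that rose differed in level and length from those that fell. Of 1362 tested genes under 1 CPM in Mock, 54.5% rose and 2.42% fell, a split that the filter on low counts shapes, since such a gene is tested more readily when 1 group is high. The 742 that rose became 483 at a count minimum of 30. The 33 that fell became 20 without IntS4 dsRNA library A, 18 with both set A libraries left out and 0 at a count minimum of 30. Of genes over 100 CPM in Mock, 17.3% rose and 35.5% fell. By gene length, 45.1% of protein-coding genes over 6663 bp rose and 20.6% fell, against 15.8% and 16.8% of those under 1604 bp (the upper and lower quartiles). Of the short genes, 338 fell, 528 under upper-quartile scaling and 213 with both set A libraries left out. Among genes at 10 CPM or more in Mock, where the filter has little part, 30.4% of the long genes rose and 28.8% fell, against 15.2% and 32.6% of the short genes. Both are descriptions, without a test, and length goes with exon number: 37.0% of genes with 6 or more exons rose, against 22.6% of those with 1 exon. At 10 CPM or more in Mock these exon classes were closer, with 26.2% and 22.9% that rose and 32.2% and 25.6% that fell. Of X-linked genes 30.9% rose and 13.2% fell, and of those on chromosome 4 10.8% rose and 35.1% fell. The X-linked genes that fell numbered 196, but 312 under upper-quartile scaling. On chromosome 4 the number that rose was 8, but 4 without IntS4 dsRNA library B and 5 without B-gal library C.

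The libraries labelled IntS4 dsRNA were also compared directly with those labelled IntS6 dsRNA, in which the totals outside ribosomal RNA were 4494406 to 5438936. Here 349 genes were higher (4.03%) and 220 lower (2.54%) with IntS4 dsRNA, 6.57% of those tested, with 1550 at an unadjusted p under 0.05. At least 4-fold differences were found for 58 genes that were higher and 8 that were lower, and at least 16-fold for 14 and 0. The number that was lower moved to 138 without IntS4 dsRNA library A, 113 without IntS4 dsRNA library B and 131 without IntS6 dsRNA library A. With both set A libraries left out, 194 were higher and 75 lower. Genes higher with IntS4 dsRNA made up 61.3% of the calls, but 45.7% with plain totals. In 24.8% of tested genes the libraries did not overlap.

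Some genes at snRNA loci held large differences between these groups. All 4 first downstream genes that rose against B-gal were also higher against IntS6 (4.03% over all genes). They were chosen as high in the same IntS4 dsRNA libraries, so this count is not independent of the first. The other tested downstream genes did not pass: CG1142 (log2 0.16, adjusted p = 0.79), mRF1 (log2 0.21, adjusted p = 0.76) and ND-B17 (log2 0.25, adjusted p = 0.67). CG15482 had 252, 237 and 216 CPM with IntS4 dsRNA and 3.03, 2.78 and 1.45 CPM with IntS6 dsRNA (log2 6.59, adjusted p = 2e-09). CG16820 had 29, 30.5 and 26.0 CPM with IntS4 dsRNA and 0.56, 0.407 and 0.0658 CPM with IntS6 dsRNA (log2 6.30, adjusted p = 1.4e-09). CG13962 had 914 counts with IntS4 dsRNA and 1 with IntS6 dsRNA, a ratio of 896 with a counting interval of 160 to 35400, and lncRNA:CR45348 had none with IntS6 dsRNA, at least 28.4-fold higher with IntS4 dsRNA. Atg18b had 232, 236 and 218 CPM with IntS4 dsRNA and 8.41, 8.54 and 7.77 CPM with IntS6 dsRNA (log2 4.79, adjusted p = 3.1e-11). FASN2 had 62.9, 66.4 and 37.5 CPM with IntS4 dsRNA and 16.9, 12.9 and 9.74 CPM with IntS6 dsRNA (log2 2.07, adjusted p = 0.00028).

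Of 21 tested snRNA genes, 5 were higher with IntS4 dsRNA than with IntS6 dsRNA and 0 lower, against 4.03% and 2.54% of all tested genes. They were led by U1:95Ca (log2 3.10), U1:82Eb (log2 2.19, adjusted p = 0.0069) and U4:38AB (log2 2.01). CG34355 went the other way, with 2.04, 3.13 and 2.75 CPM with IntS4 dsRNA and 8.29, 5.9 and 4.87 CPM with IntS6 dsRNA (log2 -1.25, adjusted p = 0.014). That call was lost without IntS4 dsRNA library A (adjusted p = 0.09) or IntS6 dsRNA library A (adjusted p = 0.12). Of the 7 genes that contain an snRNA, 2 were higher and 1 lower than with IntS6 dsRNA, with a median log2 difference of 0.02. Esyt2 (log2 0.15, adjusted p = 0.65), sick (log2 -0.16, adjusted p = 0.51), cno (log2 0.02, adjusted p = 0.95) and Eip63E (log2 -0.01, adjusted p = 0.97) did not pass.

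Away from snRNA genes, alphaTub85E had 79.8, 93.2 and 86.8 CPM with IntS4 dsRNA and 9.36, 8.2 and 8.49 CPM with IntS6 dsRNA (log2 3.31, adjusted p = 8.3e-05). Su(H) had 83.0, 76.1 and 71.2 CPM with IntS4 dsRNA and 25.4, 18.3 and 17.2 CPM with IntS6 dsRNA (log2 1.91, SE 0.14, adjusted p = 5.7e-08). exex had 7.59, 4.7 and 9.44 CPM with IntS4 dsRNA and 0.112, 0.203 and 0.395 CPM with IntS6 dsRNA (log2 4.92, adjusted p = 7.6e-06). The prophenoloxidase gene PPO3 had 184, 205 and 237 CPM with IntS4 dsRNA and 54.5, 59.4 and 70.2 CPM with IntS6 dsRNA (log2 1.77, adjusted p = 0.00063). The methionine sulfoxide reductase MsrA had 38.8, 35.8 and 35.1 CPM with IntS4 dsRNA and 13.3, 9.42 and 14.1 CPM with IntS6 dsRNA (log2 1.57, adjusted p = 8e-05). The groups were separate for all 5.

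Lower with IntS4 dsRNA was CAP, an adaptor of the vinculin-binding sorbin family, with 6.13, 5.36 and 7.02 CPM, against 19.4, 17.6 and 19.5 CPM with IntS6 dsRNA (log2 -1.62, adjusted p = 4.3e-05). Cln7, a lysosomal transporter, had 2.48, 3.08 and 3.48 CPM with IntS4 dsRNA and 7.96, 8.61 and 9.81 CPM with IntS6 dsRNA (log2 -1.53, adjusted p = 7.1e-05), and did not pass against B-gal (log2 -0.11, adjusted p = 0.72). The B″-type PP2A subunit CG4733 had 3.06, 3.94 and 4.39 CPM with IntS4 dsRNA and 9.86, 10.0 and 9.22 CPM with IntS6 dsRNA (log2 -1.35, adjusted p = 0.00011). blw had 153, 134 and 136 CPM with IntS4 dsRNA and 231, 218 and 259 CPM with IntS6 dsRNA (log2 -0.74, adjusted p = 2.9e-05). Hr4, another nuclear receptor of the ecdysone cascade, averaged 2.77 CPM with IntS4 dsRNA and 10.0 CPM with IntS6 dsRNA (log2 -1.84, adjusted p = 0.0002). Of the adhesion and protease genes above, Mmp2 (log2 0.82, adjusted p = 0.1), mew (log2 -0.30, adjusted p = 0.47) and Timp (log2 -0.64, adjusted p = 0.27) did not pass between these groups, which does not show that they were alike. Mmp2 passed with the replicate set as a block (log2 0.81, adjusted p = 0.0056).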

How the data were processed

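The values were estimated counts per gene that the authors deposited in 1 table; 90.1% lay within 0.005 of a whole number, and all were rounded to whole counts. Per the submitters' processing notes, Trimmomatic 0.39 and featureCounts were used with builds dm6 and BDGP6. The aligner and the strand setting of counting are not given in the sources used here. A gene that overlaps another (4677 tested genes) is therefore uncertain. Nor is it given how reads that fit more than 1 gene were shared, so the split between close paralogs, such as tubulins or actins, is uncertain too. Symbols and coordinates came from Ensembl release 115 of BDGP6, which holds 17626 of the 17753 entries.

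Genes were kept by edgeR's filterByExpr (count minimum 10). All 18 libraries in 6 groups were fitted together by edgeR 4.0.16 (R 4.3.3) with TMM factors and the quasi-likelihood F-test (12 residual degrees of freedom, common biological coefficient of variation 0.131), with p-values adjusted over 8699 genes, 33 of them ribosomal RNA. Standard errors are the log2 change over the root of F. CPM and summaries used Python 3.11.15, pandas 2.3.3 and SciPy 1.17.1. Exact 95% intervals and the floor of 3 counts cover counting error only.

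The labels call sets A, B and C biological replicates. Libraries of the same letter deviated together between IntS4 dsRNA and B-gal dsRNA (correlations 0.26, 0.22 and 0.43, against -0.31 to 0.14 for different letters). The main fit left the set out all the same, so its standard errors, adjusted p-values and calls are unpaired. A fit with the set as a block was an alternative. Other alternatives were DESeq2 1.42.0, other scalings, other filters, the groups alone and each library left out; leaving out both set A libraries was added after seeing the data. The members and the 51 gene lists were chosen with earlier results of these data known. Named genes were all Integrator and PP2A subunits, the 15 largest changes per direction (8 against IntS6 dsRNA) among called genes whose groups did not overlap and whose log2 CPM averaged 2 or more, 3 called members per list and direction, the 8 largest gains and losses in CPM, the 8 highest genes with no B-gal count, and snRNA loci, and the text gives a part of them. Mmp1, sr, Hr3, Hr4 and the genes that overlap a named gene were added after their values were seen; 9 list members were not analysed here, nor were promoter motifs.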

Additional observations from a re-analysis of the deposited data

How the results depend on the processing

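Against B-gal dsRNA, the number of genes that rose stayed within 1.5 times of 2344 under every alternative run (2175 to 2298 with 1 library left out, 2336 by DESeq2, 2515 with the replicate block). The number that fell was 1754, 1469 to 1628 with 1 library left out, 1720 by DESeq2, 2013 with the replicate block and 2638 with upper-quartile scaling. Against IntS6 dsRNA, the 349 genes that were higher became 542 with the replicate block, 194 with both set A libraries left out, 262 to 315 with 1 library left out and 376 by DESeq2; the 220 that were lower became 339 with plain totals, 401 with the replicate block, 75 with both set A libraries left out, 113 to 216 with 1 library left out and 269 by DESeq2. Same-letter libraries of IntS4 and IntS6 dsRNA correlated at 0.21, 0.07 and 0.28, and the main fit left the set out here too. The cause was not tested. Of 305 named genes, 262 kept their call against B-gal dsRNA under every alternative, and of 48 compared with IntS6 dsRNA, 40 did; of 176 counts over groups of genes, 116 stayed within 1.5 times. Sign changes were confined to values that did not pass. Against B-gal dsRNA, with the range over leaving out 1 library, they were IntS9 (0.05; -0.06 to 0.12; upper quartile -0.10; plain totals -0.07), IntS11 (-0.13; -0.33 to 0.05), CG5274 (0.03; -0.08 to 0.15; upper quartile -0.11; plain totals -0.09; set A left out -0.03), Fgop2 (-0.02; -0.16 to 0.11; set A left out 0.07), Cln7 (-0.11; -0.27 to 0.01), CG3770 (-0.07; -0.14 to 0.01), KP78a and KP78b (-0.15; -0.30 to 0.07), snRNA:U4atac:82E (0.17; -0.12 to 0.50; set A left out -0.18), snRNA:U6:96Ac (-0.71; -1.31 to 0.82) and Eip63E (0.07; upper quartile -0.08; plain totals -0.06). Against IntS6 dsRNA they were snRNA:U1:95Cc (-0.24; -0.71 to 0.13), snRNA:U1:95Cb (-0.38; -0.76 to 0.04), snRNA:U1:21D (0.01; -0.26 to 0.49; upper quartile -0.01; plain totals -0.06; replicate block -0.04; set A left out -0.07), snRNA:U4:39B (-0.05; -0.19 to 0.25), CG1142 (0.16; set A left out -0.03), mRF1 (0.21; -0.06 to 0.43), cno (0.02; -0.03 to 0.07; plain totals -0.05) and Eip63E (-0.01; -0.10 to 0.08). Depth limits genes near 0 in a group, whose fitted changes rest on few counts.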

Other observations

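Genes beside snRNA genes were also counted in Mock and in the Mts and Pp2A-29B dsRNA libraries, which entered the shared fit but were not compared above. Counts summed over the 3 libraries of each group are given as values only. CG15482, with 11447 counts with IntS4 dsRNA, had 66 with Mts dsRNA, 190 with Pp2A-29B dsRNA and 19 in Mock. CG16820 had 7 counts with Mts dsRNA, 36 with Pp2A-29B dsRNA and 1 in Mock. CG13962 had 0 counts with either dsRNA and 1 in Mock, and lncRNA:CR45348 had 3 counts with Pp2A-29B dsRNA and 0 with Mts dsRNA and in Mock. Atg18b, with 11167 counts with IntS4 dsRNA, had 609 with Mts dsRNA, 402 with Pp2A-29B dsRNA and 147 in Mock. FASN2 had 197 counts with Mts dsRNA, 219 with Pp2A-29B dsRNA and 43 in Mock.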
